A study of Mus musculus with 3 samples.

Results

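The regions described here are H3K4me3 regions of promoter width that have H3K27me3 close by but not on them. They were chosen from the deposited lists by position alone, as H3K4me3 regions on chromosomes 1 to 19 with a width of 2000 to 5000 bp that shared 0 bp with every H3K27me3 region and had 1 of these within 5000 bp, counted from end to end. The rule found 1858 such regions, out of 9938 H3K4me3 regions of that width on the autosomes and 21998 H3K4me3 regions in the whole list. They are called flanked regions below. The choice uses the width of the H3K4me3 region and the position of H3K27me3 up to 5 kb away, so these 2 measures describe the regions and are no findings about them.

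The lists come from chromatin immunoprecipitation and sequencing (ChIP-seq) of neurospheres, clusters of neural stem cells and their offspring that grow afloat. They were grown from the subventricular zone, a stem cell niche of the adult brain, of wild-type (WT) male C57BL/6 mice. There was 1 library with an antibody to H3K4me3 and 1 with an antibody to H3K27me3, while the input DNA was not analysed here. All libraries share the strain, sex, genotype and culture, and the sources used here give neither the age nor the number of mice. A ChIP-seq library averages over all cells of the culture, so marks that lie side by side in the list may come from different cells or alleles.

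H3K4me3 is trimethylation of lysine 4 of histone H3, laid down at the start sites of genes by Trithorax-type enzymes and found at active and at poised promoters. H3K27me3 is laid down by EZH1 and EZH2 within Polycomb repressive complex 2 and goes with gene silencing. The EED subunit of that complex binds H3K27me3 and helps the mark to spread along chromatin, and H3K4me3 on the same histone tail hinders the enzyme. In neural stem cells Polycomb proteins are known to keep self-renewal going and to hold genes of other lineages silent.

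Each comparison sets the flanked regions against 1 or both of 2 references. The first is the same set of H3K4me3 positions moved along the chromosome by 50, 100, 200, 300, 400 or 500 kb in either direction, which gives 12 sets of shifted positions. The second is the 5544 H3K4me3 regions of the same width with no H3K27me3 region within 5 kb, called distant regions. The other 2536 regions of that width shared base pairs with H3K27me3. Neither mark has a replicate library, so no value has a replicate error, no test between conditions can be made, and no p-value is given. Intervals of shares are 95% Wilson intervals that cover counting error only, and they are too narrow because neighbouring regions are not independent. The range over the 12 shifts describes the neighbourhood of the regions and is not a replicate error.

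H3K27me3 within 5 kb was about as frequent beside these H3K4me3 regions as beside shifted positions, but it lay on both sides far less often. Of the 7402 H3K4me3 regions of 2 to 5 kb that shared 0 bp with H3K27me3, 25.1% were flanked (95% interval 24.1 to 26.1%). At shifted positions the share was 25.3% on average, with a range over the 12 shifts of 24.2 to 26.3%. The order turned with shifts of only 10, 15 and 20 kb, which gave 22.1% on average. Among the 1858 flanked regions, 152 had H3K27me3 on both sides, or 8.18% (7.02 to 9.52%). Among flanked shifted positions the share was 21.0% on average and between 18.6 and 22.8% in every shift. The ratio of the flanked regions to the mean of the shifts was 0.390 for both sides, and it was below 1 on 19 of 19 autosomes.

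Flanking on 1 side was the usual form and was more frequent than at shifted positions. Of the flanked regions, 1706 (91.8%, 90.5 to 93.0%) had H3K27me3 on 1 side only. This was 23.0% of the H3K4me3 regions that shared 0 bp with H3K27me3, against 20.02% of the shifted positions (range 19.2 to 20.8%). Neither direction along the chromosome was favoured by much, with 878 regions flanked on the side of lower coordinates and 828 on the side of higher coordinates. Since the direction in which genes are read was not used here, it is not known whether the H3K27me3 lay upstream of a promoter or inside its gene.

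Among H3K4me3 regions that shared 0 bp with H3K27me3, the mark on 1 side said little about the other side. Of the 1030 regions with H3K27me3 on the lower side, 14.8% (12.7 to 17.1%) also had it on the higher side. Of the 6372 without it on the lower side, 13.0% (12.2 to 13.8%) had it on the higher side. At shifted positions the same shares were 34.6% and 11.8% on average, so that there H3K27me3 on 1 side went with H3K27me3 on the other.

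**Figure D1:**
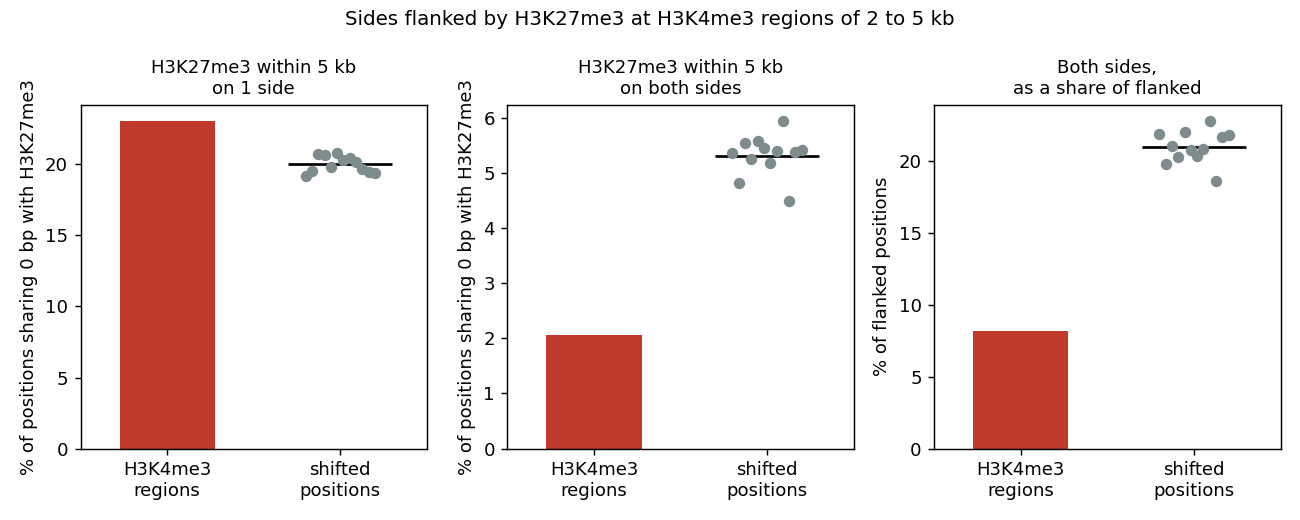
The bars give the share of H3K4me3 regions of 2 to 5 kb with H3K27me3 within 5 kb on 1 side (left panel) and on both sides (middle panel), in percent of positions that share 0 bp with H3K27me3, and both sides as a percentage of flanked positions (right panel). Grey points are the 12 sets of shifted positions and the black line is their mean; the bar lies above all 12 points for 1 side (23.0%) and below all 12 for both sides (2.05% of positions and 8.18% of flanked ones).

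Very short gaps between the marks were less frequent than at shifted positions. The 1858 regions had 2010 flanks, counting 1 for each side, with gaps from 2 bp to just under 5000 bp and a median of 2282 bp. At shifted positions the median gap ran from 2081 to 2216 bp, below that of the H3K4me3 regions in all 12 shifts. A nearest gap under 500 bp was found at 6.11% of H3K4me3 regions per kb of gap, against 7.74% at shifted positions (range 7.35 to 8.59%). From 1000 to 2000 bp the values were 5.61% and 5.65%. From 4000 to 5000 bp they were 4.27% and 3.63% (range 3.20 to 3.95%). The nearest H3K27me3 region thus lay under 500 bp away 0.789 times as often as at shifted positions, and 4000 to 5000 bp away 1.18 times as often. Each position counts once here, by its nearer gap, and shifted positions had H3K27me3 on both sides more often. These ratios are therefore not those of all flanks. Over all flanks, 11.2% of gaps were under 500 bp, against a mean of 13.1% at shifted positions (range 12.1 to 14.2%).

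**Figure D2:**
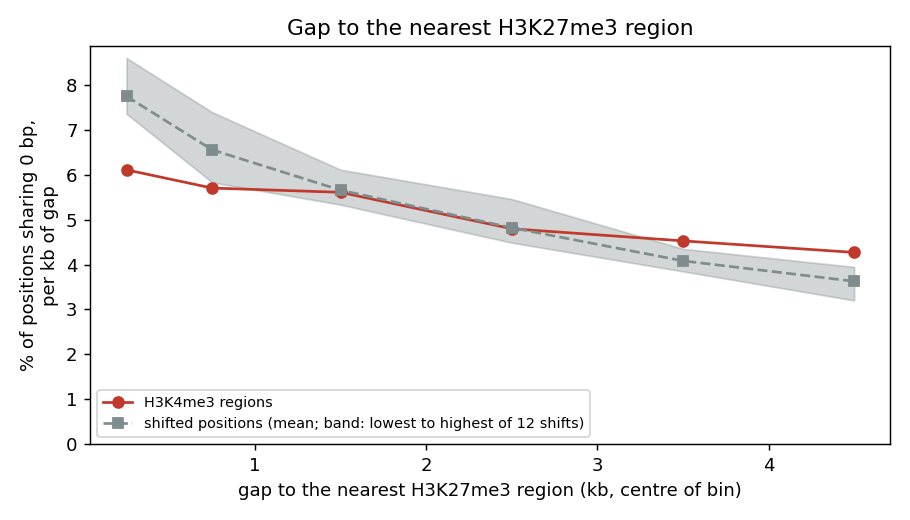
The vertical axis gives the percentage of positions sharing 0 bp with H3K27me3 whose nearest H3K27me3 region lies at the gap on the horizontal axis, per kb of gap. The red line (H3K4me3 regions) starts at 6.11% under 500 bp, below the grey band that spans the 12 sets of shifted positions, meets the grey mean between 1 and 3 kb, and ends above the band at 4.27%.

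The flanking H3K27me3 regions were mostly narrow and low in score, and their medians lay a little above those of the flanks of shifted positions in both. Their median width was 836.5 bp (interquartile range 685 to 1144 bp) and their median score 94.9. The score is the authors' value for each region, has no stated scale, starts near 50 and piles up at 3100, and is compared only within a list. All 115609 H3K27me3 regions of the autosomes had a median width of 879 bp and a median score of 112. The flanks of shifted positions had a mean of median widths of 806 bp (range 791 to 822 bp) and of median scores of 90.2 (range 87.6 to 93.0). The top score of 3100 or more was reached by 32 of the 2010 flanks, or 1.59%, where 2.57% of all H3K27me3 regions of the autosomes and 0.754 to 1.64% of flanks in shifts had it. A width of 2000 bp or more was found in 158 flanks (7.86%), against a mean of 5.83% at shifted positions (range 5.05 to 6.92%) and 12.3% of all H3K27me3 regions of the autosomes. A width of 5000 bp or more was found in 21 flanks (1.04%), within the range of 0.563 to 1.20% at shifted positions, where 2.12% of all H3K27me3 regions of the autosomes had it.

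More of the flanks belonged to long stretches of H3K27me3 than at shifted positions. When H3K27me3 regions were merged over gaps of up to 3 kb into domains, 297 flanks (14.8%) belonged to a domain of 10 kb or more. The share was 10.4% on average at shifted positions (range 9.36 to 12.5%), and 39.5% of all H3K27me3 regions of the autosomes lay in such domains. A flank that stood alone, with no other H3K27me3 region within 3 kb, made up 1129 of the 2010 (56.2%), against a mean of 61.8% at shifted positions (range 59.9 to 64.1%) and 30.1% of all H3K27me3 regions of the autosomes. The median length of the domain behind a flank was 1.35 kb, against 0.992 to 1.16 kb at shifted positions. Few flanks were shared, since 38 of the 1972 H3K27me3 regions involved flanked 2 H3K4me3 regions and 1934 flanked 1.

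Split by the width of the wider flank, 1234 of the regions (66.4%) had a flank under 1000 bp, 467 (25.1%) 1 of 1000 to under 2000 bp, 136 (7.32%) 1 of 2000 to under 5000 bp and 21 (1.13%) 1 of 5000 bp or more. The corresponding means at shifted positions were 68.0%, 25.1%, 5.98% and 0.887%. Flanking on both sides was found at 5.27% of regions with a flank under 1000 bp (4.15 to 6.66%), against 14.0% of such shifted positions (range 12.4 to 15.3%). For flanks of 1000 to under 2000 bp it was 12.8% (10.1 to 16.2%) against 34.6% (range 30.8 to 37.2%). For flanks of 2000 to under 5000 bp it was 15.4% (10.3 to 22.5%) against 40.5% (range 27 to 48.4%). For the widest class it was 6 of 21 regions (28.6%, 13.8 to 49.96%) against 34.05% (range 18.8 to 52.2%), and at that number no difference was detectable. The lower share of both sides therefore held in the 3 narrower classes, in which the interval lay below the range of the shifts. The gap to the wider flank had a median of 2388 bp in the narrowest class, 2249 bp in the next, then 1658 bp for 2000 to under 5000 bp and 1892 bp for the 21 widest.

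The H3K27me3 mark around regions flanked on 1 side was lopsided beyond the 5 kb window of the rule, and more so than at shifted positions. Flanks that begin within 5 kb can reach past it, while none begin there on the open side. The rule therefore bears on part of this contrast. At regions flanked on 1 side, H3K27me3 covered 22.4% of base pairs from 5 to 10 kb on the flanked side and 2.78% on the open side. From 10 to 20 kb the values were 19.4% and 6.76%, from 20 to 50 kb 18.03% and 11.4%, and from 50 to 100 kb 16.5% and 14.7%. The flanked side was above the open side on 19 of 19 autosomes in each distance class up to 50 kb, and on 16 of 19 from 50 to 100 kb. Positions flanked on 1 side after shifting were lopsided too, but less so. From 5 to 10 kb they had 15.3% on the flanked side (range 13.9 to 17.3%) and 5.44% on the open side (range 5.02 to 6.12%). From 10 to 20 kb the means were 12.9% and 7.83%, and from 20 to 50 kb 12.1% and 9.69%. From 50 to 100 kb they were 11.3% and 10.6%.

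Next to the region, the open side was close to the surroundings of distant H3K4me3 regions. From 5 to 10 kb it was covered to 2.78%, against 2.27% around distant regions, and was higher on 13 of 19 autosomes. The rule keeps the first 5 kb free of H3K27me3 in both, so it bears on this likeness. Shifted positions under the same rule had 5.44% on the open side and 2.08% around distant positions from 5 to 10 kb. Farther out the open side held more H3K27me3 than distant regions did. From 20 to 50 kb the values were 11.4% and 6.51%, and from 50 to 100 kb 14.7% and 8.63%, with the open side higher on 18 of 19 autosomes in both classes. Shifted positions showed this farther contrast too, with 9.69% on the open side and 5.18% around distant positions from 20 to 50 kb, and 10.6% and 6.71% from 50 to 100 kb.

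**Figure D3:**
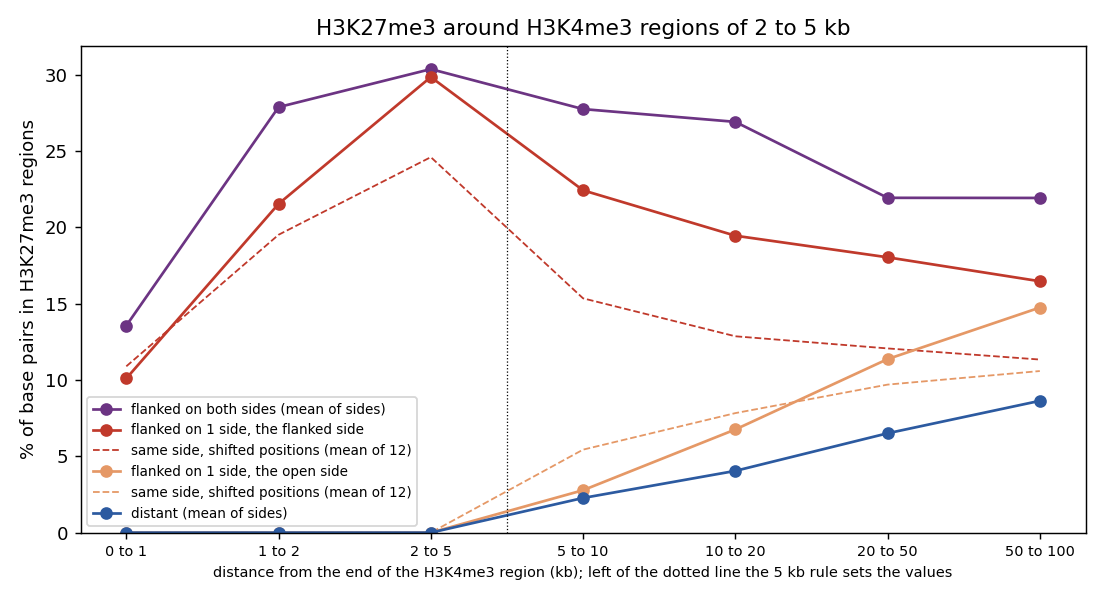
The percentage of base pairs in H3K27me3 regions is plotted against distance from the end of the H3K4me3 region in kb, for regions flanked on both sides, the flanked and the open side of regions flanked on 1 side, and distant regions; dashed lines are the same sides at shifted positions (mean of 12 shifts). Right of the dotted line, the flanked side falls from 22.4% at 5 to 10 kb to 16.5% at 50 to 100 kb. The open side goes up from 2.78% to 14.7%. Flanks that begin within 5 kb can run past the dotted line, so the rule also bears on values to its right.

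Regions flanked on both sides lay in denser H3K27me3. From 5 to 10 kb, 27.7% of base pairs were covered, averaged over the sides, and from 50 to 100 kb 21.9% still were. Positions flanked on both sides after shifting had 23.8% (range 22.9 to 24.9%) and 17.1% (range 15.7 to 18.3%). The H3K27me3-free stretch around the 152 regions had a median length of 7100.5 bp (interquartile range 5491 to 8397 bp) and ran from 2752 to 13383 bp. The nearer gap had a median of 1017 bp and the farther 3305 bp. Both gaps were 1000 bp or less in 13 regions and 2000 bp or less in 42.

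The flanks of these 152 regions were seldom both wide. The narrower flank had a median width of 723.5 bp and the wider 1096.5 bp. Both flanks were under 1000 bp in 65 regions, at least 1 was 2000 bp or more in 27, and both were in 1. The widths of the flanks on either side were only loosely related (Spearman rho 0.13 over the 152 regions, which share 1 H3K27me3 library and its local density, given as a description).

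The H3K4me3 score, which the rule did not use, differed little from that of distant regions as the rule stands. The top score was reached by 1781 of the 1858 flanked regions (95.9%, 94.9 to 96.7%) and by 5348 of the 5544 distant ones (96.5%, 95.9 to 96.9%). The difference was -0.609 percentage points, with a 95% interval of -1.71 to 0.358, and flanked regions were lower on 13 of 19 autosomes. This interval was made from the Wilson intervals of both shares. It counts regions as independent, so it is too narrow and is no test. With a gap limit of 2000 bp the difference was -1.67 percentage points. It was -1.43 with H3K27me3 scores of at least 100 and -3.09 with H3K4me3 widths of 1500 to 6000 bp. With a gap limit of 10000 bp it was -0.307, and with H3K27me3 merged over gaps of up to 3000 bp -0.611. Over all H3K4me3 regions of 2 to 5 kb on the autosomes the share was 92.9%. Regions that shared base pairs with H3K27me3 had a lower share, 83.0% (81.5 to 84.4%). Regions flanked on both sides lay between, at 136 of 152 (89.5%, 83.6 to 93.4%), against 1645 of the 1706 flanked on 1 side (96.4%, 95.4 to 97.2%). Most regions of this width tie at the top score, so differences above it cannot be seen. The 77 flanked regions below it had a median score of 1574 and the 196 distant regions below it 1585, and the lowest flanked region had 267.

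Flanked regions were somewhat narrower than distant ones within the bounds of the rule. Their median width was 2742.5 bp (interquartile range 2381 to 3312 bp), against 2887.5 bp (2442 to 3437 bp) for distant regions, and it was lower on 17 of 19 autosomes. Regions that shared base pairs with H3K27me3 were narrower still, with a median of 2649 bp (2277 to 3263 bp). Among H3K4me3 regions that shared 0 bp with H3K27me3, 28.5% of those of 2000 to 2499 bp were flanked (26.7 to 30.4%), against 26.0% of shifted positions of that width (range 24.7 to 27.7%). Of those of 3000 to 3499 bp, 20.8% were (18.8 to 23.0%), against 24.8% of shifted positions (range 22.5 to 26.7%). The other classes were 26.6% against 25.4% at 2500 to 2999 bp, 21.8% against 25.6% at 3500 to 3999 bp, and 23.2% against 23.3% (range 20.3 to 26.5%) at 4000 to 5000 bp, so no difference was seen in the widest class. The share flanked on both sides lay below that of shifted positions in every width class. It was 10.8% against 22.5% at 2000 to 2499 bp, 6.56% against 20.8% at 2500 to 2999 bp, 5.25% against 21.2% at 3000 to 3499 bp, 9.95% against 18.5% at 3500 to 3999 bp and 7.34% against 17.9% at 4000 to 5000 bp. At 3500 to 3999 bp the interval of 6.46 to 15.01% reached into the range of the shifts, 13.5 to 22.3%, and in the other classes it lay below that range.

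Other H3K4me3 regions lay near flanked regions more often than near distant ones. At regions flanked on 1 side they lay more often on the flanked than on the open side. Another H3K4me3 region was found within 10 kb of 706 flanked regions (38.0%, 35.8 to 40.2%) and of 30.6% of distant regions (29.4 to 31.8%). Over all H3K4me3 regions of 2 to 5 kb on the autosomes the share was 31.7%. The difference of 7.41 percentage points had the same direction on 15 of 19 autosomes. At regions flanked on 1 side, 454 of 1706 (26.6%, 24.6 to 28.8%) had such a neighbour on the flanked side and 292 (17.1%, 15.4 to 18.98%) on the open side. The 5544 distant regions had 1953 such neighbours, counted over both of their sides. The open side was thus not above a single side of distant regions. Of the 454 neighbours, 48 lay wholly between the region and its H3K27me3, 98 began in the gap and reached onto that H3K27me3 region, 65 began within it and 243 lay beyond it.

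Neighbours on the flanked side often carried both marks. H3K27me3 lay on 266 of the 454 (58.6%, 54.0 to 63.0%), against 26 of the 292 neighbours on the open side (8.90%, 6.15 to 12.7%) and 6.96% of the neighbours of distant regions (5.92 to 8.18%). Over all H3K4me3 regions of 2 to 5 kb on the autosomes, 25.5% shared base pairs with H3K27me3, while the neighbours were of any width. The rule asks for H3K27me3 on the flanked side, and 98 of the 454 neighbours began in the gap and reached onto the flank itself. It also keeps H3K27me3 out of the first 5 kb on the open side and around distant regions. The rule thus sets a large part of this contrast. Among neighbours that began over 5 kb away the shares were 81 of 179 (45.3%, 38.1 to 52.6%) on the flanked side, 23 of 133 (17.3%, 11.8 to 24.6%) on the open side and 15.1% (12.8 to 17.7%) near distant regions. A flank that begins within 5 kb can reach past it and onto such a neighbour. The rule therefore bears on these shares too, and how far was not tested. The neighbours on the flanked side were narrower, with a median of 1741.5 bp against 1998.5 bp on the open side, and fewer reached the top score, 41.2% against 53.8%. Neighbours of distant regions had a median of 2179 bp and 59.9% at the top score. Those of regions flanked on both sides had 1992 bp and 46.2%.

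A flanking H3K27me3 region that itself touched another H3K4me3 region was found at 200 of the 1858 flanked regions (10.8%, 9.44 to 12.3%). Counted over flanks it was 203 of 2010 (10.1%), within the range of 7.81 to 10.6% at shifted positions, while 6.96% of all H3K27me3 regions of the autosomes touched H3K4me3. The share went up with the width of the flank. It was 6.22% under 1000 bp (5.06 to 7.62%), 13.0% from 1000 to under 2000 bp (10.3 to 16.3%), 30.7% from 2000 to under 5000 bp (23.6 to 38.8%) and 13 of 21 (61.9%, 40.9 to 79.2%) at 5000 bp or more. The means at shifted positions, 5.69%, 12.4%, 35.9% and 66.1%, were of like size. Among all H3K27me3 regions of the autosomes the shares in these classes were lower, at 3.67%, 7.89%, 18.3% and 34.4%, and also went up with width. The cause of the rise was not tested.

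Among autosomes the share of flanked regions varied. It was 24.5 ± 4.62% (SD over 19 autosomes), from 16.8% on chromosome 3, with 63 flanked regions, to 32.5% on chromosome 17, with 121. Shifted positions on these chromosomes gave 20.8% and 31.4%. H3K27me3 covered 3.02% of chromosome 3 and 7.09% of chromosome 17 between the first and the last region. Chromosome 11 had the highest cover, 11.2%, with 167 flanked regions and a share of 27.8%, against 29.4% at shifted positions. The share was above that of shifted positions on 7 autosomes and below it on 12. The share flanked on both sides was 8.54 ± 2.76% (SD over 19 autosomes), and it ran from 3.82% on chromosome 5, against 21.8% at shifted positions, to 15.3% on chromosome 12, against 19.3%.

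**Figure D4:**
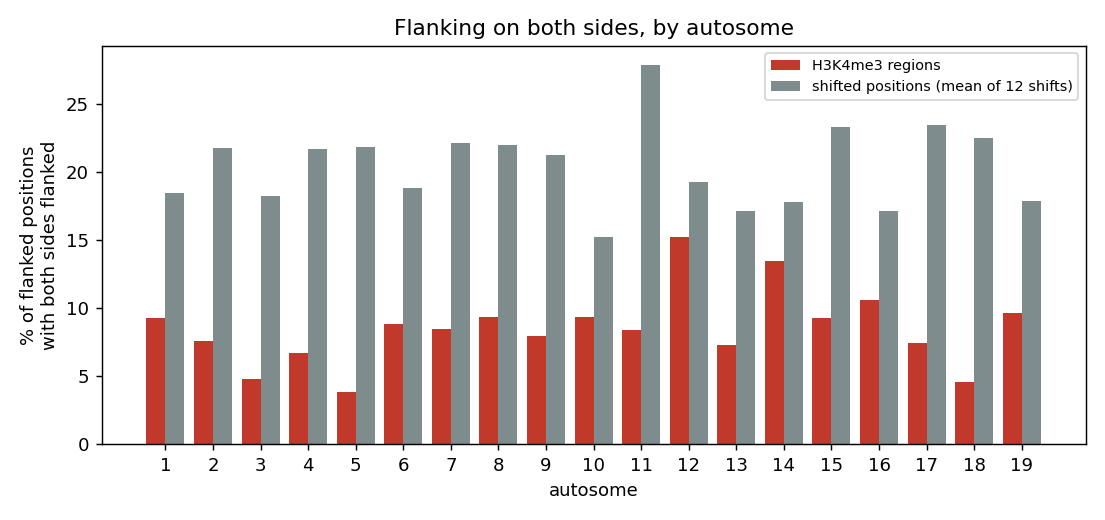
For each autosome on the horizontal axis, the red bar gives the percentage of flanked H3K4me3 regions with H3K27me3 on both sides and the grey bar the mean of the same percentage over 12 sets of shifted positions. The red bar is the lower of the pair on all 19 autosomes, with the smallest distance on chromosome 12 (15.3% against 19.3%) and chromosome 14 (13.5% against 17.8%).

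The tightest examples of H3K27me3 on both sides left little room around the H3K4me3 region. Positions are those of the mouse build mm9, counted from 1. On chromosome 8, an H3K4me3 region of 2008 bp (chr8:124108362-124110369) lay 150 bp from an H3K27me3 region of 865 bp and 594 bp from another of 668 bp. On chromosome 17, a region of 2404 bp (chr17:28658848-28661251) had gaps of 761 and 20 bp, to H3K27me3 regions of 740 and 623 bp. A wider region of 4403 bp on the same chromosome (chr17:56611832-56616234) had gaps of 636 and 300 bp, to H3K27me3 regions of 1001 and 1771 bp. Within 50 kb of it, 4.69% of base pairs were covered by H3K27me3 on the lower side and 54.6% on the higher side. The fourth lay on chromosome 13 (chr13:49414115-49416299), with gaps of 300 and 781 bp and an H3K4me3 score of 1574, below the top. Its surroundings were sparse, with 1.97% and 4.85% of base pairs in H3K27me3 within 50 kb. The fifth, on chromosome 10 (chr10:80956999-80960396), had gaps of 288 and 821 bp and lay in dense H3K27me3 on both sides, at 57.4% and 39.5%. The H3K27me3 cover of the surroundings differed widely among these 5 regions.

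Of the 5 regions with the widest pairs of flanks, most owed the sum mainly to 1 side. A 4391 bp region on chromosome 6 (chr6:83002443-83006833) had an H3K27me3 region of 16555 bp 3164 bp away on the higher side, the widest flank of all, and 1 of 688 bp on the lower side. A region of 2330 bp on chromosome 10 (chr10:126957574-126959903) lay between flanks of 1247 and 12857 bp, and 1 of 2732 bp on chromosome 14 (chr14:70944392-70947123) between flanks of 862 and 9693 bp. A region of 2440 bp on chromosome 11 (chr11:101113804-101116243) had flanks of 3381 and 4691 bp, the one case with both at 2000 bp or more, and both of them touched another H3K4me3 region. The last, also on chromosome 11 (chr11:114529459-114532187), had flanks of 1747 and 5823 bp and dense H3K27me3 on both sides, 68.1% and 52.9% within 50 kb. All 5 had the top H3K4me3 score.

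Among regions flanked on 1 side, the 5 with the widest flank all had more H3K27me3 within 50 kb on the flanked side than on the open side, to different degrees. The wide flank lies in that window, and the rule keeps the first 5 kb of the open side free of H3K27me3. The choice of these 5 regions thus sets much of this order. On chromosome 17 (chr17:56903345-56905539) an H3K27me3 region of 13202 bp ended 1892 bp from the H3K4me3 region and belonged to a domain of 35.5 kb. Within 50 kb, 66.3% of base pairs were covered on the flanked side and 38.1% on the open side. A second H3K4me3 region lay 1.08 kb away on the flanked side and reached from the gap onto this H3K27me3 region. On chromosome 8 (chr8:47636453-47638793) an H3K27me3 region of 10740 bp ended 4026 bp away. There 31.1% of base pairs were covered within 50 kb on the flanked side and 0% on the open side, as read from the list of called regions. Another on chromosome 8 (chr8:97507474-97512187) had 50.3% on the flanked side and 1.76% on the open side, with a flank of 8516 bp. The others were chr17:31700305-31704887, with a flank of 8954 bp and 49.8% against 15.8%, and chr8:73278050-73280582, with a flank of 8499 bp and 56.5% against 23.2%.

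The closest marks on 1 side were almost adjoining. A 3174 bp region on chromosome 11 (chr11:62632992-62636165) was 2 bp from an isolated H3K27me3 region of 1093 bp. On chromosome 9 (chr9:21655945-21658240) the gap was 13 bp, on chromosome 5 (chr5:36923160-36926033) 21 bp, on chromosome 4 (chr4:151670204-151673312) 25 bp and on chromosome 7 (chr7:50698055-50700759) 27 bp. Their flanks were 823 to 1241 bp wide. The regions on chromosomes 11 and 5 had under 8% of base pairs in H3K27me3 within 50 kb on either side, while that on chromosome 4 belonged to a domain of 43.3 kb, with 71.3% on the flanked side. A gap of this size is less than the length of DNA on a nucleosome, and the ends depend on how the regions were called.

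**Figure D5:**
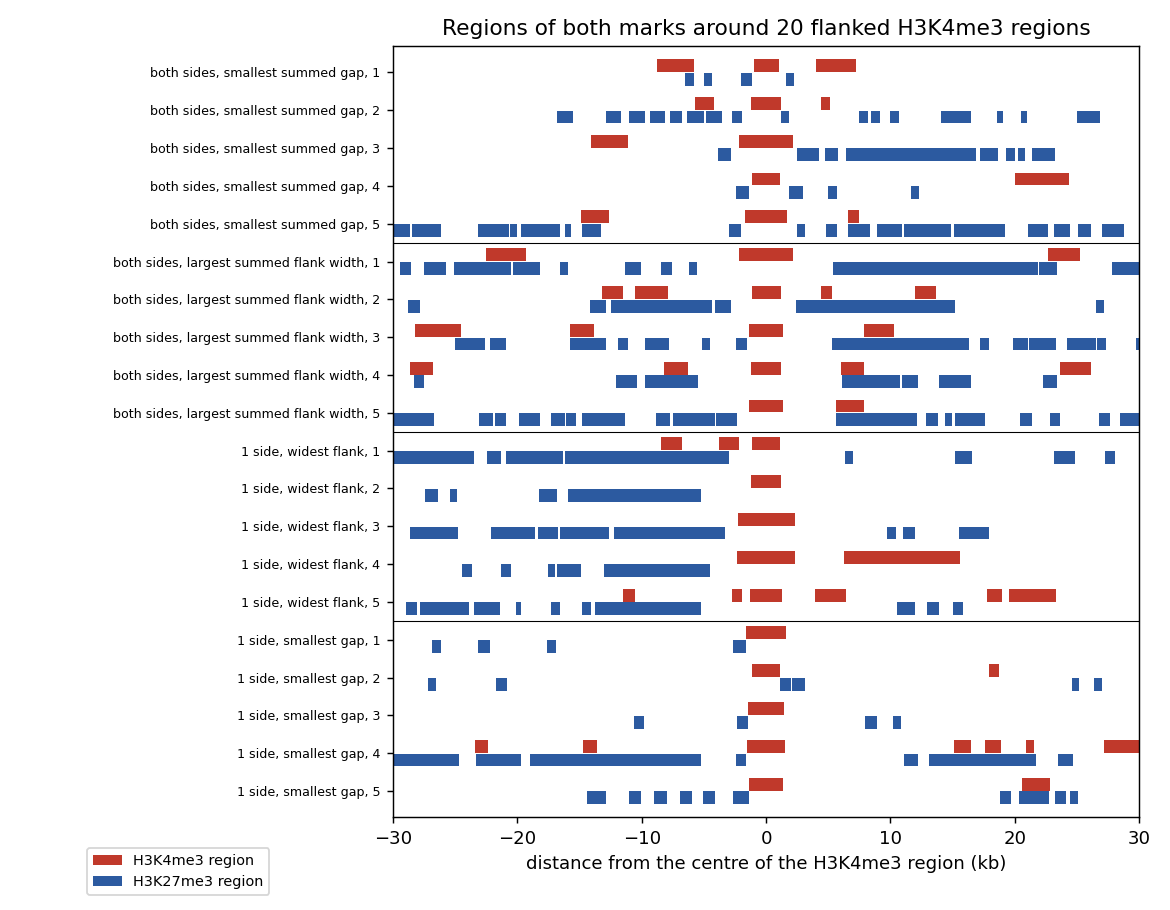
Called regions of H3K4me3 (red, upper bar) and H3K27me3 (blue, lower bar) within 30 kb of the centre of 20 flanked H3K4me3 regions, in the order of the text, with lower coordinates to the left and distance in kb on the horizontal axis. In the third group, the 5 with the widest flank on 1 side, the flank stands on the left in all 5, while in the second group the wider of the nearest regions stands on the right of the central H3K4me3 region in all 5.

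The limits of the rule cut through a continuous range of values. The 3 just inside the gap limit had gaps of 4994 bp and more, and the 3 just outside 5004, 5008 and 5009 bp, all 6 at the top score. The narrowest flanked regions were 2001, 2001 and 2004 bp wide, and the widest left out for their width below the limit were 1996 bp and more. At the upper limit the widest flanked regions were 4946, 4960 and 4986 bp, and the next beyond it 5022, 5023 and 5027 bp.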

How the data were processed

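The deposited data are 1 list of called regions per mark, each region with a score whose scale the authors did not state. Per the submitters' processing notes, Bowtie 1.1.2 and mm9 were used, and per the deposited files the regions have MACS names. How MACS was run (version, threshold, control) is not given in the sources used here. Neither list holds reads, so sequencing depth is unknown. Gaps were computed from end to end with Python 3.11.15, NumPy 2.4.6, pandas 2.3.3 and SciPy 1.17.1, and drawn with matplotlib 3.10.9. They were tested on simulated data and checked against bedtools 2.31.1, with 0 differences over 21098 regions. Shifted positions outside the span of the lists on a chromosome were left out. Gene and promoter tables at hand are of GRCm38.p6, another build, so no gene, promoter or sequence was joined to the regions and the planned gene lists were not used. Named regions are, by rule, the 5 with the smallest summed gap and the 5 with the widest summed flanks among those flanked on both sides, the 5 with the widest and the 5 with the nearest flank on 1 side, and 3 on either side of each limit. The members, lists and comparisons were chosen with earlier results of these data known. The share flanked on both sides was set against shifted positions after its values had been seen.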

Additional observations from a re-analysis of the deposited data

How the results depend on the processing

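Of 39 recomputed values, 23 stayed within the interval of the reported value, or within 1.5 times a count, and 16 moved. The number of flanked regions, 1858 as reported, was 852 with a gap limit of 2000 bp, 2970 with 10000 bp and 1192 with H3K27me3 scores of at least 100, as fewer or more regions qualify by construction. The share flanked relative to shifted positions, 0.991 as reported, was 0.899 at 2000 bp, 0.921 with scores of at least 100, and turned to 1.14 (95% interval 1.09 to 1.18) when positions were moved by only 10, 15 and 20 kb, so its direction depends on the distance of the shift. The share on both sides, 8.18%, was 4.93% at 2000 bp, 13.8% at 10000 bp, 10.4% with H3K4me3 widths of 1500 to 6000 bp and 5.62% with scores of at least 100. Relative to shifted positions the share on both sides, 0.390, was 0.480 at 10000 bp, 0.479 with the wider range of widths and 0.317 with scores of at least 100, and ran from 0.369 to 0.430 under the other 5 alternatives, among them shifts of 10 to 20 kb and shifted positions off H3K4me3 regions. All alternatives for this ratio, and the last 2 settings, were chosen after seeing the data. The difference in top-score share, -0.609 percentage points, was -3.09 (95% interval -4.66 to -1.60) with the wider range of widths. It was -1.67 (-3.42 to -0.290) with a gap limit of 2000 bp and -1.43 (-2.90 to -0.205) with scores of at least 100. At 10000 bp it was -0.307, and with H3K27me3 merged over 3000 bp -0.611. These intervals count regions as independent, so they are too narrow and give no test. The share whose flank touched another H3K4me3 region, 10.8%, was 15.8% with scores of at least 100 and 20.7% with H3K27me3 merged over 3000 bp, which makes flanks longer. The cause of the other changes was not tested. No paired analysis was possible because neither mark has a replicate. Depth is not known here, so a stretch without H3K27me3 regions cannot be set against a detection limit.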
